A study of Mus musculus with 52 samples.

Results

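The TNF superfamily, its ligands and their receptors, was followed across treated and untreated mouse pancreatic tumors. Its 44 members were taken from the 27525 genes of the table by symbol: every gene named Tnfsf or Tnfrsf with a number, and Tnf, Lta, Ltb, Ltbr, Fas, Fasl, Cd40, Cd40lg, Cd27, Cd70, Ngfr and Eda2r. The rule uses symbols and no measured value. The members comprise 17 ligands, 22 receptors, 4 decoy or decoy-like receptors and 1 antisense RNA (Tnfsf13os). RNA of individual subcutaneous KPC tumors was sequenced in 4 groups of 8 tumors. KPC cells derive from pancreatic adenocarcinoma of genetically engineered mice that carry Pdx1-Cre, and here were grown in the flank of male C57BL/6 mice aged 8 to 10 weeks, so each tumor combines 1 transplanted tumor line with host stroma and immune cells outside the pancreas. Tumors were left untreated, were injected once with 2 µg of ADU-S100, an analog of cGAMP that activates STING, received the agonistic anti-LTβR antibody 4H8 by intraperitoneal injection in 4 doses of 100 µg, or received both agents (combination). All tumors were collected on day 14, counted from the injection of the STING agonist. The study's descriptions differ on whether the tumors came from 1 experiment or from more, and the labels name none, so no experiment term could be entered in a test.

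TNF superfamily ligands are mostly membrane proteins that act as trimers and bring receptors on a neighbouring cell together. Receptors recruit TRAF adaptors and activate canonical or noncanonical NF-κB signaling, and those with a death domain can also start apoptosis. In lymphoid tissue, lymphotoxin α and β, made by lymphocytes, act through the LTβR of stromal and endothelial cells, while BAFF, APRIL and CD40 ligand maintain and activate B cells, and CD27, OX40, GITR and related receptors give costimulatory signals to T cells. Decoy receptors bind ligand without passing on the full signal.

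Values are normalized counts, that is reads of a gene divided by 1 size factor per library. Recovered reads per library ran from 12762453 to 15591986, and 7 of the 32 libraries held 14000000 or fewer. Epithelial markers were present in every group, and the summed level of Epcam, Krt8, Krt18, Krt19 and Cdh1 ran over 15950 to 28940 (median 20190) without treatment, 13220 to 21770 (median 18120) after ADU-S100, 13110 to 16160 (median 15200) after anti-LTβR and 6829 to 14650 (median 10600) after both agents. The level of skeletal muscle genes differed strongly between tumors of the same group, with summed levels of 4685 to 102800 (median 7270) without treatment, 5865 to 191400 (median 69500) after ADU-S100, 5601 to 138000 (median 90100) after anti-LTβR and 5481 to 296700 (median 82890) after both agents. Untreated tumor 3 stood apart from the other untreated tumors in T cell markers (summed level 859.9, the highest of its group, where the median was 465) and in several members named below. In bulk tumors a smaller number of cells of a type and less RNA per cell cannot be told apart. Differences below are log2 fold changes of log2(normalized count + 1) with their standard error (SE), from limma fitted to all genes, and a gene passed where its Benjamini-Hochberg adjusted p was under 0.05. The labels do not say which mice shared a cage, injection or sequencing day, or whether tumors of a group shared a mouse, so p-values measure the spread between tumors only. All tests treat the tumors as independent.

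Per exon length, the 6 members with the highest level were receptors or decoy receptors. In untreated tumors Tnfrsf12a, the receptor of TWEAK (also called Fn14), had the highest mean at 2240 ± 565 normalized counts per kilobase of merged exon (SD, n = 8), followed by the TNF receptor Tnfrsf1a at 1137 ± 84.8 and the TRAIL decoy receptor Tnfrsf23 at 1074 ± 108. Tnfrsf1a and Tnfrsf23 lay within the SD of each other. Tnfrsf22 (709.6 ± 126), Ltbr (587 ± 77), which encodes the antibody's target, and Tnfrsf1b (482 ± 44.7) came next, and the SD intervals of Tnfrsf22 and Ltbr, and of Ltbr and Tnfrsf1b, overlapped. Among ligands the highest level was that of Tnfsf12, which encodes TWEAK (200.4 ± 22.5), then Tnfsf9 (108 ± 17.9) and Ltb (76.3 ± 29.6), and the SD intervals of Tnfsf9 and Ltb overlapped. Cd40lg (0.796 ± 0.410) and Cd70 (0.597 ± 1.27), ligands of activated lymphocytes, were lowest. In combination tumors Tnfrsf1a (1155 ± 68.4) and Tnfrsf12a (1130 ± 169.9) were at nearly the same level per kilobase.

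**Figure D1:**
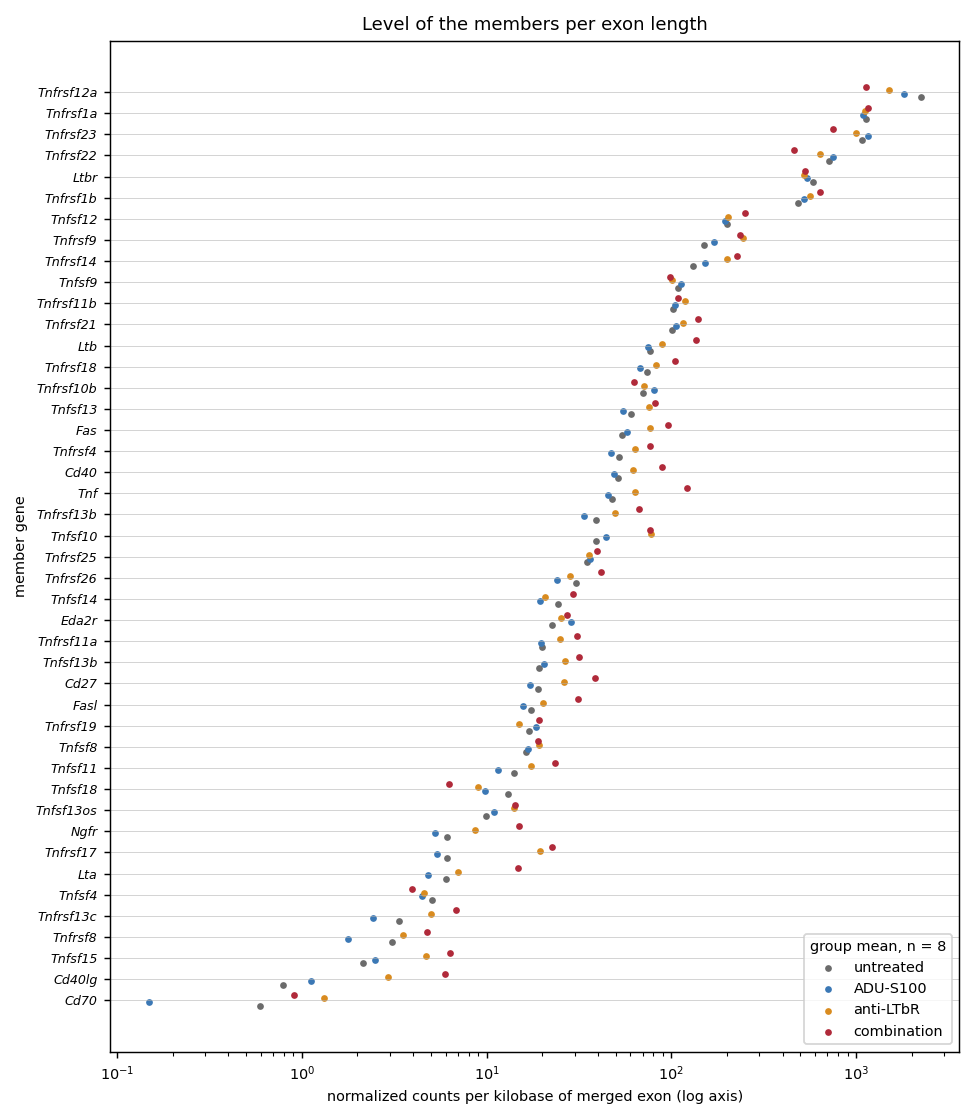
Group means (n = 8 tumors) of normalized counts per kilobase of merged exon for the 44 members on a log axis, ordered by the untreated mean, with untreated in grey, ADU-S100 in blue, anti-LTβR in orange and combination in red. Tnfrsf12a is highest in untreated tumors at 2240 and falls to 1130 in combination tumors, while Tnf goes from 47.6 to 121.

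Between combination and untreated tumors, 27 of the 38 members tested passed, 23 higher and 4 lower, where 43.2% of all 16909 genes tested passed, 19.6% higher and 23.6% lower. The median log2 fold change was 0.50 over the members tested and -0.016 over all genes. Of these members 5 changed at least 2-fold (Tnfsf15, Ngfr, Tnf, Lta and Cd27), against 6.12% of all genes. Tnfsf15 and Lta failed the filter on low values between ADU-S100 and untreated tumors, and were tested here through the combination tumors, where they were higher. Without untreated tumor 3, 30 members passed, and with the muscle marker level as a covariate 25 did. By role, 10 of 13 ligands tested were higher and none was lower, 12 of 20 receptors were higher and 2 lower, and 2 of 4 decoy receptors were lower. The tumors of the groups did not overlap for 5 members that were higher (4.64% of all genes) and for 1 that was lower (6.04%). Between anti-LTβR and untreated tumors 8 of 38 members passed, 7 higher and 1 lower, where 15.3% of genes passed, 7.21% higher and 8.1% lower, and the median over the members was 0.24 against 0.003 over all genes. There 1 member changed 2-fold (1.04% of genes), which was Tnfsf15, tested there through the anti-LTβR tumors. The tumors did not overlap for 2 members that were higher (0.809%) and 0 that were lower (0.965%). Between ADU-S100 and untreated tumors limma called 0 of 36 members and 0.0% of all genes. An unadjusted p under 0.05 was reached there by 3 members (Tnfrsf10b, Tnfrsf12a and Tnfrsf26) and by 14.5% of all genes, and edgeR and DESeq2 on recovered reads also called 0 members.

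**Figure D2:**
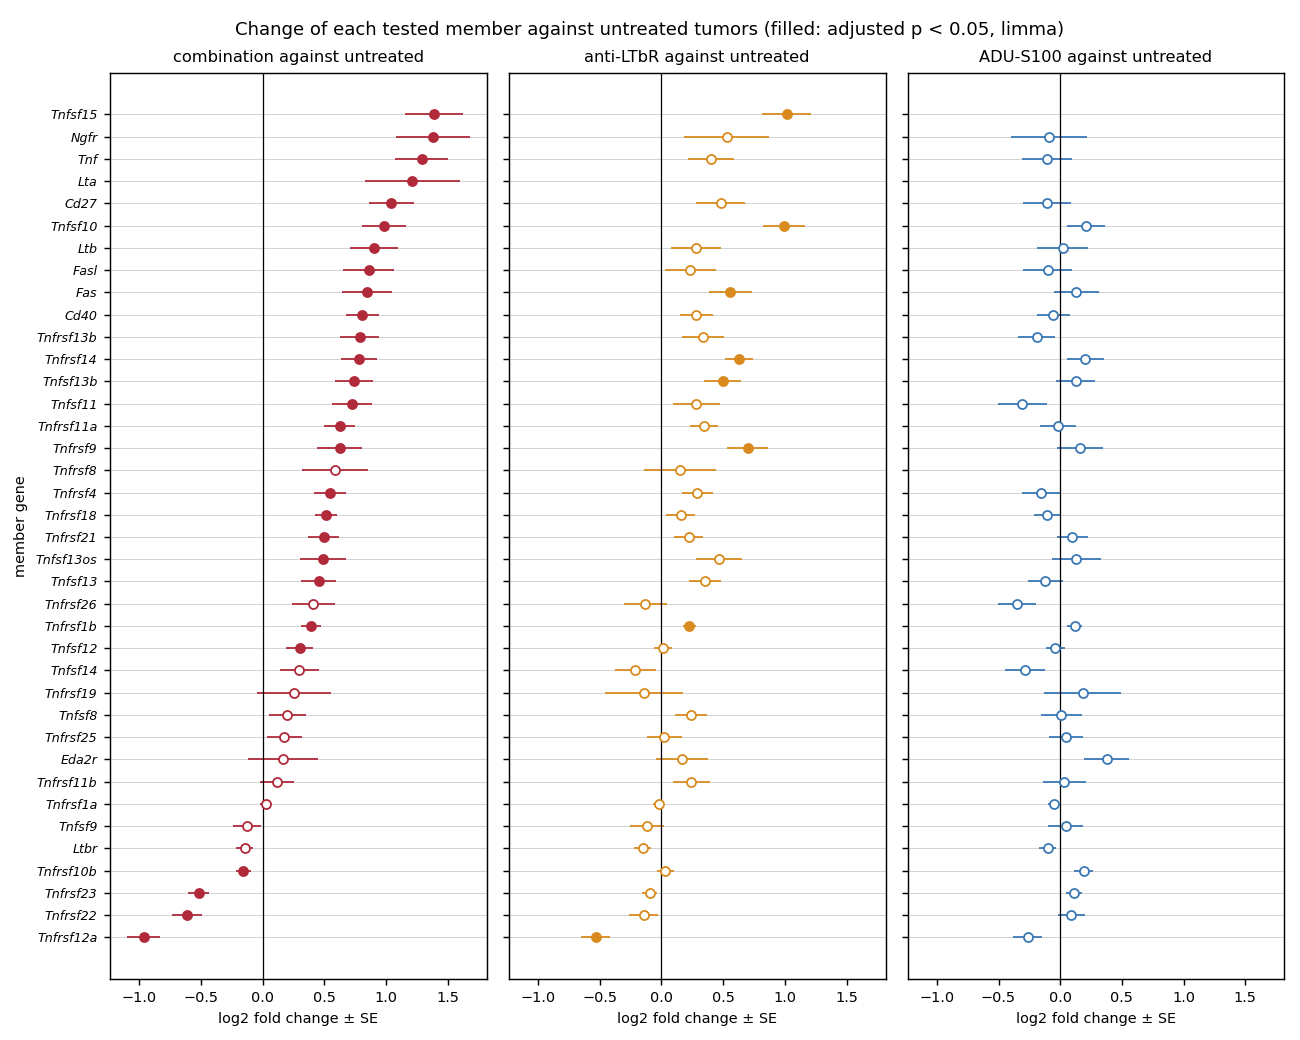
Log2 fold change ± SE (x axis) of each of the 38 members tested in combination tumors, shown for combination (left), anti-LTβR (middle) and ADU-S100 (right) against the same 8 untreated tumors, with filled circles where the adjusted p is under 0.05. Filled circles number 27, 8 and 0, and a member missing from a panel failed the filter on low values there.

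Against the antibody alone, combination tumors differed in 16 of 41 members tested, 12 higher and 4 lower (26.6% of all genes, 11.3% higher and 15.3% lower), with a median of 0.27 over the members and -0.025 over all genes, and 0 members changed 2-fold (2.11% of genes). Their tumors did not overlap for 0 members that were higher (1.45%) and for 1 that was lower (1.71%). Against the STING agonist alone they differed in 27 of 37 members, 23 higher and 4 lower (46.2% of all genes, 20.2% higher and 26.0% lower), with a median of 0.57 against -0.021, 6 of them at least 2-fold (6.17%). The tumors did not overlap for 6 members that were higher (5.0%) and for 2 that were lower (6.96%). The comparisons share groups and are therefore not separate evidence. Of the 16 members that differed from anti-LTβR tumors, the calls for Tnfrsf12a and Tnfrsf23 held when the 4 of these 16 libraries with 14000000 or fewer reads (anti-LTβR tumors 5 and 8, combination tumors 5 and 6) were left out, and the other 14 did not pass with those fewer tumors, although each kept its direction. Every value from the combination against anti-LTβR comparison below carries that limit, and in all the call was lost in 5 of 9 alternatives for Tnfrsf10b and in 2 of 9 each for Fasl, Tnfrsf11a and Tnfrsf13b.

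**Figure D3:**
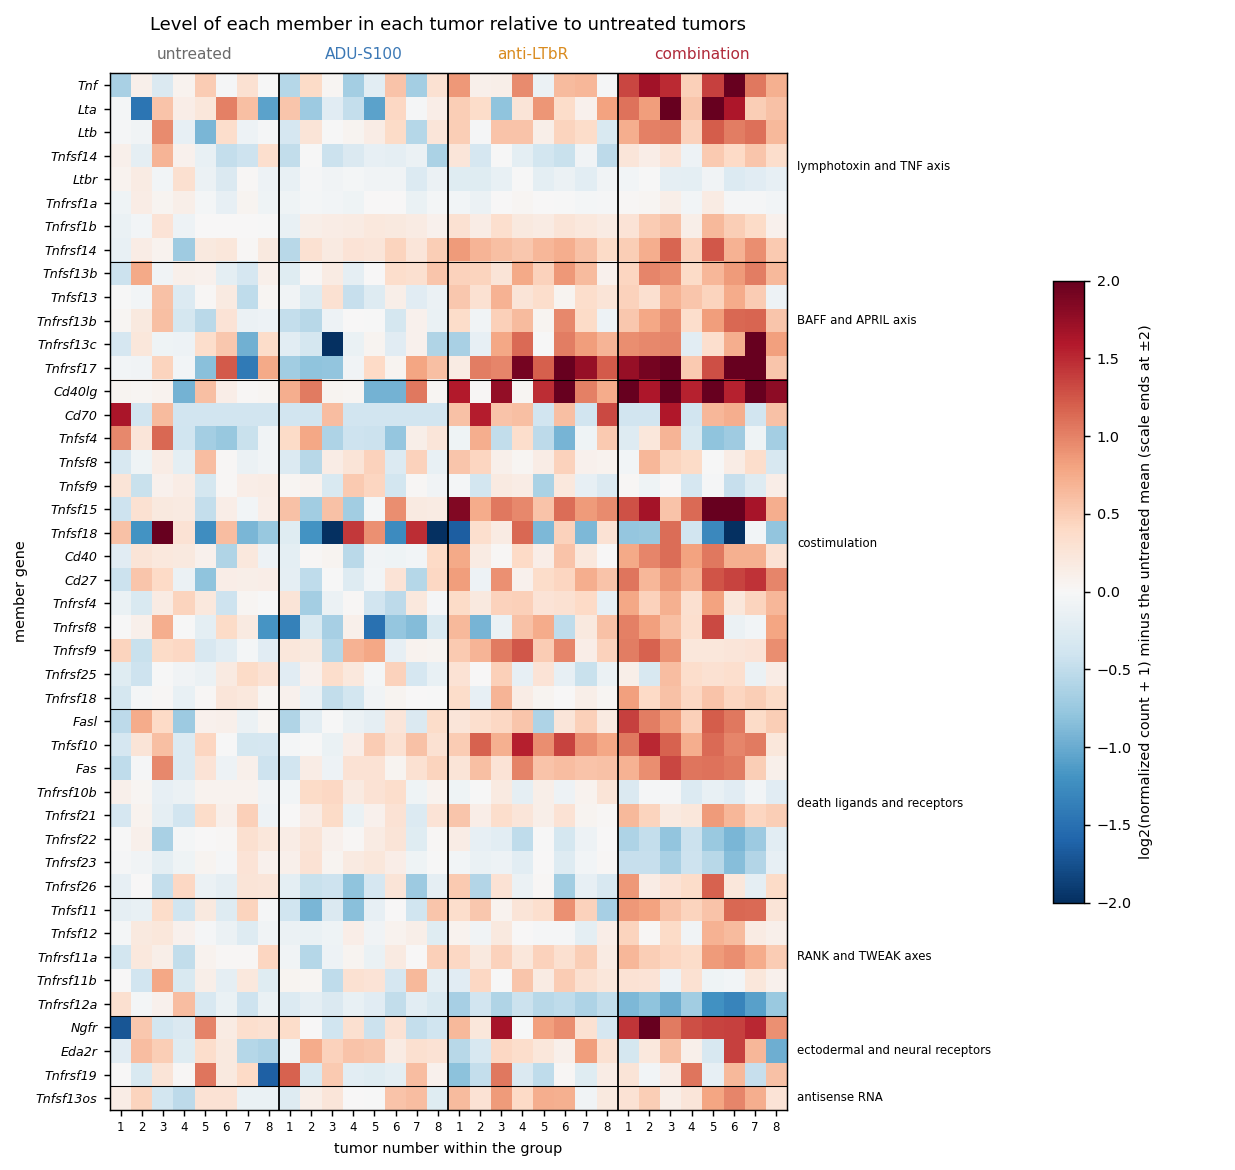
Log2(normalized count + 1) of each member (rows, grouped by axis) in each of the 32 tumors (columns, by group and tumor number) minus the mean of the 8 untreated tumors, with red above and blue below and the color scale ending at 2 in either direction. Most rows turn red in the 8 combination tumors, while Tnfrsf12a, Tnfrsf22 and Tnfrsf23 turn blue, and low genes such as Cd40lg, Tnfrsf17 and Tnfsf18 vary widely from tumor to tumor.

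The lymphotoxin and TNF axis holds the ligands of the receptor that the antibody engages. Of its 8 members 5 were higher in combination than in untreated tumors (19.6% of all genes) and 3 did not pass. Tnf, Lta and Ltb lie next to each other on chromosome 17 (the cluster spans chr17:35194439-35205351 in GRCm38). Ltb encodes the membrane subunit that joins lymphotoxin α in the ligand of LTβR, and the 250 bases before its RefSeq start hold a match to the NF-κB consensus (found in 7.25% of all such windows), whereas the same length before Tnf and before Lta holds none. Like Lta, both Ltb and Tnf passed as higher with the combination. The sequences upstream of Ltb and Tnf are shown as a window with and a window without a match. They are RefSeq sequence of GRCm38.p6, 5′ to 3′ on the strand of the gene, at chr17:35194257-35194438 on the plus strand for Ltb and chr17:35202008-35202257 on the minus strand for Tnf, with the match in capitals, and each is printed up to the first annotated exon.
Ltb: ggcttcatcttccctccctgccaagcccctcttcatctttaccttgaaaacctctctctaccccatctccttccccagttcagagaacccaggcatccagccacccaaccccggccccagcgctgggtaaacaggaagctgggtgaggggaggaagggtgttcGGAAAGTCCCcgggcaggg
Tnf: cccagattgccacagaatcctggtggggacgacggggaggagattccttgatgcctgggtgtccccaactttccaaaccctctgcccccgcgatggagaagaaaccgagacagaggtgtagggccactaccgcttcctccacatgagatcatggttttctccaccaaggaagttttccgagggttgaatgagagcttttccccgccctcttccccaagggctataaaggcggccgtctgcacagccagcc

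Ltb ran from 57.3 to 212 (median 105) without treatment, 73.3 to 142 (median 117) after ADU-S100, 88.3 to 163 (median 145) after anti-LTβR and 150.3 to 255 (median 221) after both agents. All 8 combination tumors lay above every ADU-S100 tumor, 7 lay above every anti-LTβR tumor and 5 above every untreated tumor, the overlap coming from untreated tumor 3. The difference was 0.90 ± 0.19 (adjusted p = 0.00148) from untreated, 0.62 ± 0.14 (adjusted p = 0.00462) from anti-LTβR and 0.88 ± 0.14 (adjusted p = 0.000119) from ADU-S100 tumors. Tnf, the inflammatory cytokine that gives the family its name, ran from 48.1 to 108 (median 77.7) without treatment, 47.1 to 113 (median 71.6) after ADU-S100, 69.8 to 147 (median 101) after anti-LTβR and 106 to 349.9 (median 195) after both agents. Of the combination tumors 7 exceeded every untreated tumor and 6 every anti-LTβR tumor. Its difference from untreated tumors was 1.29 ± 0.21 (adjusted p = 0.000214) and from anti-LTβR tumors 0.89 ± 0.23 (adjusted p = 0.00985), and with the antibody alone it was 0.40 ± 0.18 (adjusted p = 0.142). Lta, which encodes lymphotoxin α, was low and ran from 1.97 to 15.6 (median 8.31) without treatment, 2.92 to 11 (median 6.51) after ADU-S100, 3.68 to 14.2 (median 9.58) after anti-LTβR and 10.6 to 43.7 (median 15) after both agents. Its combination tumors had the widest range, with 4 of them above every untreated tumor. The difference was 1.21 ± 0.39 (adjusted p = 0.0177) from untreated and 0.91 ± 0.31 (adjusted p = 0.0416) from anti-LTβR tumors, the latter call lost in 4 of 8 alternative analyses. Lta failed the filter on low values between each single-agent group and untreated tumors, so it was tested only where the combination tumors entered.

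Tnfsf14, which encodes LIGHT, a ligand shared by LTβR and HVEM, followed another course and ran from 31.1 to 70.6 (median 42.7) without treatment, 27.7 to 43.4 (median 37) after ADU-S100, 30.1 to 51.8 (median 36.2) after anti-LTβR and 40.6 to 64.5 (median 54.5) after both agents. Both single-agent groups had a lower median than untreated tumors and the combination a higher one, yet all 8 combination tumors fell within the untreated range, whose top was untreated tumor 3, and 4 of them lay above the other 7 untreated tumors. Accordingly it did not pass against untreated tumors at 0.30 ± 0.16 (adjusted p = 0.142), but passed against anti-LTβR at 0.51 ± 0.13 (adjusted p = 0.00822) and against ADU-S100 at 0.58 ± 0.12 (adjusted p = 0.000872). Among the receptors, Tnfrsf14, which encodes HVEM, ran from 113 to 218 (median 199.7) without treatment, 126 to 263 (median 222) after ADU-S100, 243 to 336 (median 288) after anti-LTβR and 255 to 442 (median 304) after both agents. Every anti-LTβR and every combination tumor lay above every untreated tumor. The difference from untreated tumors was 0.63 ± 0.12 (adjusted p = 0.00368) with the antibody and 0.78 ± 0.15 (adjusted p = 0.000543) with the combination, and 0.15 ± 0.11 (adjusted p = 0.342) between these groups.

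Tnfrsf1b, the TNF receptor found mainly on immune and endothelial cells, ran from 1665 to 2225 (median 1834) without treatment, 1657 to 2125 (median 2035) after ADU-S100, 2039 to 2325 (median 2112) after anti-LTβR and 1943 to 2881 (median 2496) after both agents. The combination tumors spread over a wider range than the anti-LTβR tumors, which lay within a narrow band, and 5 combination tumors lay above every untreated tumor, or all 8 with untreated tumor 3 set aside. It was higher by 0.23 ± 0.052 (adjusted p = 0.0111) with the antibody and by 0.39 ± 0.084 (adjusted p = 0.00144) with the combination. The widely expressed receptor Tnfrsf1a had group means (± SD) of 2945 ± 219.6 without treatment, 2837 ± 94.6 after ADU-S100, 2892 ± 101 after anti-LTβR and 2993 ± 177 after both agents. Ltbr itself had means of 1381 ± 181, 1279 ± 69.2, 1234 ± 73.2 and 1240 ± 80 in the same order. Neither passed in any comparison, with differences between combination and untreated tumors of 0.025 ± 0.051 (adjusted p = 0.722) for Tnfrsf1a and -0.15 ± 0.072 (adjusted p = 0.106) for Ltbr. Tnfrsf1a, Ltbr and Cd27 are neighbours on chromosome 6 (chr6:125232622-125362484), and of these 3 only Cd27 passed. Marker counts of several cell types are given beside the axis. Between combination and untreated tumors 4 of 5 macrophage, 3 of 5 dendritic cell and 4 of 4 blood endothelial markers passed as higher. Of the fibroblast markers 5 of 5 were higher there, and of the epithelial markers 3 of 5 were lower. With the antibody alone 3 of 5 macrophage, 2 of 5 dendritic cell and 1 of 4 blood endothelial markers were higher. Of the fibroblast markers 0 of 5 passed there, and of the epithelial markers 3 of 5 were lower. None was at 0. The summed endothelial level ran over 1034 to 1533 (median 1217) without treatment, 834 to 1392 (median 1152) after ADU-S100, 1175 to 1622 (median 1475) after anti-LTβR and 1817 to 2578 (median 2114) after both agents. The part of these cells in the changes of the axis was not tested.

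**Figure D4:**
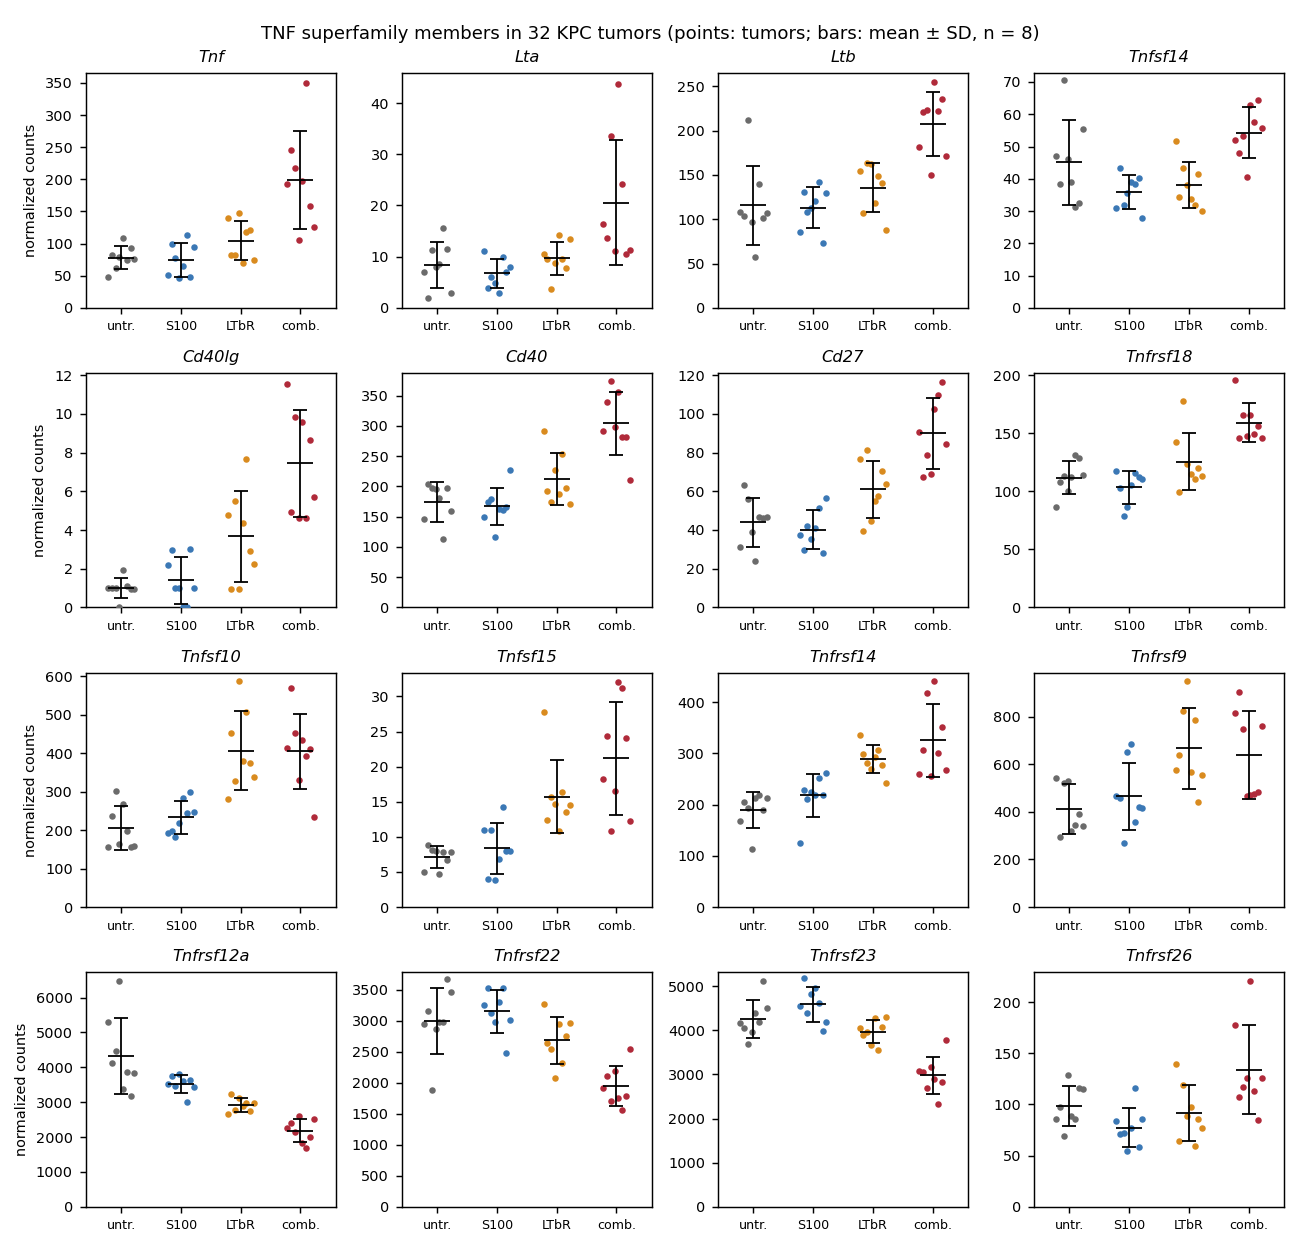
Normalized counts (y axis, from 0) of 16 members in each of the 8 untreated (untr.), ADU-S100 (S100), anti-LTβR (LTbR) and combination (comb.) tumors, with points for tumors and bars for mean ± SD. Cd27, Cd40, Tnfrsf14, Tnfsf15, Tnfrsf18 and Cd40lg in combination tumors lie wholly above their untreated tumors and Tnfrsf12a lies wholly below, while Tnfsf10 has medians of 378 with the antibody alone and 412 with the combination.

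The BAFF and APRIL axis supports B cells and plasma cells, and all 3 of its members that passed the filter on low values were higher in combination than in untreated tumors (19.6% of all genes). Tnfsf13b, which encodes BAFF, ran from 94.2 to 217 (median 128) without treatment, 108 to 188 (median 136) after ADU-S100, 136 to 234 (median 176) after anti-LTβR and 166 to 261 (median 217) after both agents. Untreated tumor 2 was far above the other untreated tumors and overlapped the treated groups. It was higher by 0.74 ± 0.15 (adjusted p = 0.000973) with the combination and by 0.50 ± 0.15 (adjusted p = 0.0353) with the antibody, a call that was lost in 4 of 10 alternative analyses. Tnfsf13, which encodes APRIL, ran from 67.7 to 145 (median 96.9) without treatment, 69.8 to 119.6 (median 85.2) after ADU-S100, 100.3 to 157 (median 121) after anti-LTβR and 90.3 to 163 (median 135) after both agents. The groups overlapped, with 2 combination tumors above every untreated tumor, or 7 with untreated tumor 3 set aside. Its difference was 0.45 ± 0.14 (adjusted p = 0.0164) from untreated tumors, and this did not pass without the libraries of 14000000 or fewer reads (untreated tumor 6, combination tumors 5 and 6). Tnfrsf13b, which encodes TACI, a receptor of both ligands, ran from 73.5 to 164 (median 106) without treatment, 73 to 115 (median 99.5) after ADU-S100, 100.3 to 210.3 (median 140) after anti-LTβR and 138 to 242 (median 189) after both agents. All 8 combination tumors lay above every ADU-S100 tumor and 5 above every untreated tumor, or all 8 with untreated tumor 3 set aside. The difference was 0.79 ± 0.16 (adjusted p = 0.000874) from untreated and 0.45 ± 0.16 (adjusted p = 0.0429) from anti-LTβR tumors.

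Tnfrsf17 and Tnfrsf13c encode BCMA, a receptor of plasma cells, and the BAFF receptor of B cells, and both failed the filter between combination and untreated tumors. Tnfrsf17 ran from 0.957 to 11.1 (median 4.01) without treatment, 1.97 to 8.04 (median 4.16) after ADU-S100, 4.80 to 46.1 (median 11) after anti-LTβR and 6.45 to 34.7 (median 17.4) after both agents. The highest anti-LTβR tumor was above every combination tumor. By a two-sided exact permutation test over the 12870 ways to split 16 tumors, unadjusted, its log2 difference from untreated tumors was 1.70, p = 0.00218 with the combination and 1.43, p = 0.00404 with the antibody. Tnfrsf13c ran from 2.87 to 10 (median 6.99) without treatment, 0 to 7.03 (median 5.50) after ADU-S100, 3.84 to 15.6 (median 11.6) after anti-LTβR and 5.53 to 32.8 (median 12.9) after both agents. Its exact permutation result was 0.84, p = 0.00948 for the combination and 0.46, p = 0.131 for the antibody. Of the B cell markers Ms4a1, Cd79a, Cd79b and Pax5, 3 of 4 passed as higher in combination than in untreated tumors and 0 of 4 with the antibody alone, and none was at 0 in any group. Their summed level ran over 69.7 to 234 (median 110) without treatment, 42.5 to 178 (median 119.7) after ADU-S100, 95.8 to 495 (median 222) after anti-LTβR and 144 to 680 (median 308) after both agents. A further marker of the B cell list is not reported here, so these counts do not cover the whole list. Of the plasma cell markers 3 of 5 were higher and 1 lower in combination than in untreated tumors, 2 of 5 were higher and 0 lower with the antibody alone, and none was at 0. The part of these cells in the changes of the receptors, and of Cd40 below, was not tested.

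The costimulation group is the largest, with 14 members, of which 10 were tested between combination and untreated tumors, 6 passed as higher and none as lower (19.6% and 23.6% of all genes). CD40 on antigen-presenting cells and its ligand on helper T cells form the pair that drives B cell help. Cd40 ran from 112 to 204 (median 189) without treatment, 117 to 227 (median 164) after ADU-S100, 172 to 292 (median 195) after anti-LTβR and 210.3 to 375 (median 295) after both agents. All 8 combination tumors lay above every untreated tumor and 4 above every anti-LTβR tumor. Its difference was 0.81 ± 0.13 (adjusted p = 0.000204) from untreated and 0.52 ± 0.13 (adjusted p = 0.00716) from anti-LTβR tumors. Cd40lg failed the filter and ran from 0 to 1.91 (median 0.993) without treatment, 0 to 3.01 (median 0.995) after ADU-S100, 0.955 to 7.69 (median 3.62) after anti-LTβR and 4.61 to 11.5 (median 7.18) after both agents. No combination tumor overlapped an untreated or an ADU-S100 tumor. In two-sided exact permutation tests the log2 differences were 2.06, p = 0.000155 from untreated and 0.96, p = 0.00963 from anti-LTβR tumors, unadjusted, the first p being the smallest that 8 against 8 tumors can give, and anti-LTβR tumors differed from untreated tumors by 1.10, p = 0.00528 in the exact permutation test.

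Cd27, a costimulatory receptor of T cells and memory B cells, ran from 23.9 to 63 (median 46.3) without treatment, 28.1 to 56.5 (median 39.2) after ADU-S100, 39.4 to 81.1 (median 60.6) after anti-LTβR and 67.5 to 117 (median 87.3) after both agents. Combination tumors lay above every untreated and every ADU-S100 tumor, and 5 lay above every anti-LTβR tumor. The differences were 1.04 ± 0.18 (adjusted p = 0.000323) from untreated and 0.56 ± 0.16 (adjusted p = 0.0173) from anti-LTβR tumors. Tnfrsf18, which encodes GITR of regulatory and activated T cells, ran from 86.4 to 131 (median 113) without treatment, 78.7 to 118 (median 108) after ADU-S100, 99.3 to 178 (median 118) after anti-LTβR and 146 to 196 (median 153) after both agents. It separated the combination from untreated and from ADU-S100 tumors without overlap, while 2 anti-LTβR tumors exceeded every untreated tumor. Its difference was 0.51 ± 0.091 (adjusted p = 0.000365) from untreated and 0.36 ± 0.10 (adjusted p = 0.0194) from anti-LTβR tumors. Tnfrsf4, its neighbour on chromosome 4, encodes OX40 and ran from 52.2 to 95.4 (median 71) without treatment, 43.4 to 83.8 (median 67.1) after ADU-S100, 62.4 to 97.5 (median 89.2) after anti-LTβR and 81.9 to 124 (median 104) after both agents. Of its combination tumors 5 were above every untreated tumor. The difference was 0.55 ± 0.13 (adjusted p = 0.00269) from untreated tumors and did not pass against anti-LTβR tumors (0.26 ± 0.11, adjusted p = 0.0889).

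Tnfsf15, which encodes TL1A, and Tnfrsf9, which encodes CD137, were higher already with the antibody alone. Tnfsf15 was low and ran from 4.77 to 8.86 (median 7.79) without treatment, 3.93 to 14.3 (median 7.98) after ADU-S100, 10.9 to 27.8 (median 14.6) after anti-LTβR and 10.8 to 32 (median 21.2) after both agents. Neither the anti-LTβR nor the combination tumors overlapped the untreated tumors. It was higher by 1.01 ± 0.20 (adjusted p = 0.00496) with the antibody, the only member tested by limma that changed 2-fold there, and by 1.38 ± 0.23 (adjusted p = 0.000248) with the combination. Tnfsf15 failed the filter on low values between ADU-S100 and untreated tumors, so it was tested only where a group with its higher levels entered. Tnfrsf9 ran from 295 to 543 (median 368) without treatment, 269 to 684 (median 439.5) after ADU-S100, 439.9 to 951 (median 608) after anti-LTβR and 466 to 903 (median 615) after both agents. The anti-LTβR and combination ranges overlapped widely. It was higher by 0.70 ± 0.17 (adjusted p = 0.0133) with the antibody and 0.62 ± 0.18 (adjusted p = 0.0104) with the combination, which did not pass against ADU-S100 tumors (0.46 ± 0.20, adjusted p = 0.0648). Their partners did not pass: Tnfrsf25, the receptor of TL1A, had means of 80 ± 15.1 in untreated and 90.7 ± 18.1 in combination tumors, and Tnfsf9, the ligand of CD137, 139.7 ± 23.1 and 127 ± 17.4. The difference was 0.17 ± 0.14 (adjusted p = 0.331) for Tnfrsf25 and -0.13 ± 0.12 (adjusted p = 0.394) for Tnfsf9.

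Tnfrsf8, which encodes CD30, ran from 3.89 to 17.3 (median 10.4) without treatment, 2.92 to 10.9 (median 5.74) after ADU-S100, 4.77 to 17.4 (median 13.6) after anti-LTβR and 9.23 to 26.7 (median 16.9) after both agents. Its ADU-S100 tumors had the lowest median. It did not pass between combination and untreated tumors (0.59 ± 0.27, adjusted p = 0.0868), failed the filter against ADU-S100 tumors and differed from them by 1.30, p = 0.000466 in the unadjusted exact permutation test. Tnfsf8, its ligand, had means of 62.6 ± 14.1 in untreated and 72.2 ± 15.7 in combination tumors (0.20 ± 0.15, adjusted p = 0.302). Tnfsf18, which encodes the ligand of GITR, ran from 6.68 to 111 (median 15.4) without treatment, 2.00 to 49.2 (median 10.6) after ADU-S100, 4.80 to 39 (median 20.2) after anti-LTβR and 1.15 to 38.4 (median 9.69) after both agents, so that 1 untreated tumor, tumor 3, was far above all others. Tnfsf4, which encodes the ligand of OX40, had means of 9.38 ± 5.74 and 7.26 ± 3.21 in untreated and combination tumors and Cd70, the ligand of CD27, 0.503 ± 1.07 and 0.765 ± 1.03. Exact permutation tests of combination against untreated tumors gave -0.75, p = 0.26 for Tnfsf18, -0.24, p = 0.449 for Tnfsf4 and 0.26, p = 0.445 for Cd70 (log2 differences, unadjusted). T cell markers moved beside this group: 5 of 5 (Cd3d, Cd3e, Cd3g, Cd2 and Cd5) passed as higher in combination than in untreated tumors and 1 of 5 with the antibody alone, none was at 0, and their summed level ran over 332 to 859.9 (median 465) without treatment, 428 to 585 (median 502) after ADU-S100, 567 to 836 (median 697) after anti-LTβR and 662 to 1128 (median 933) after both agents. Their part in the changes of the costimulatory genes was not tested.

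Among death ligands and receptors, 4 of 8 members were higher in combination than in untreated tumors and 3 were lower (19.6% and 23.6% of all genes). Tnfsf10, which encodes TRAIL, ran from 156 to 303 (median 181) without treatment, 182 to 299.6 (median 232) after ADU-S100, 282 to 588 (median 378) after anti-LTβR and 234 to 569.6 (median 412) after both agents. The antibody and combination groups covered nearly the same range. It was higher by 0.99 ± 0.17 (adjusted p = 0.00253) with the antibody and by 0.98 ± 0.18 (adjusted p = 0.000388) with the combination, and the difference between these groups was -0.007 ± 0.17 (adjusted p = 0.981). Fasl, the death ligand of cytotoxic lymphocytes, ran from 19.1 to 54.3 (median 33.7) without treatment, 20.9 to 41.6 (median 28.9) after ADU-S100, 20.7 to 47.8 (median 39.8) after anti-LTβR and 42.4 to 84.6 (median 62.7) after both agents. All combination tumors lay above every ADU-S100 tumor and 5 above every anti-LTβR tumor. Its difference was 0.86 ± 0.21 (adjusted p = 0.00324) from untreated and 0.62 ± 0.18 (adjusted p = 0.0185) from anti-LTβR tumors, and 0.23 ± 0.21 (adjusted p = 0.44) between anti-LTβR and untreated tumors. Beside Fasl, all 4 NK cell markers (Ncr1, Klrb1c, Klra8 and Eomes) passed as higher in combination than in ADU-S100 tumors and 0 of 4 against untreated or anti-LTβR tumors, none was at 0, and their summed level ran over 93.1 to 181 (median 129) without treatment, 64.3 to 117 (median 97.6) after ADU-S100, 93.1 to 271 (median 129) after anti-LTβR and 114 to 228 (median 167) after both agents. The T cell markers passed as higher in 5 of 5 against ADU-S100 and untreated tumors and in 2 of 5 against anti-LTβR tumors, and the part of these cells in the level of Fasl was not tested. Fas, its receptor, ran from 74.3 to 207 (median 102) without treatment, 81.6 to 145 (median 124) after ADU-S100, 127 to 212 (median 159) after anti-LTβR and 115 to 271 (median 212) after both agents. Untreated tumor 3 was above the rest of its group and overlapped the combination range. Fas was higher by 0.85 ± 0.20 (adjusted p = 0.00312) with the combination and by 0.56 ± 0.17 (adjusted p = 0.0395) with the antibody, a call that was lost in 5 of 10 alternative analyses.

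Within the group of death ligands and receptors, the 3 receptors of TRAIL passed as lower in combination tumors, in which their ligand was higher. Mice have 1 TRAIL receptor with a death domain, Tnfrsf10b, and its decoys Tnfrsf22 and Tnfrsf23, which lie with the related gene Tnfrsf26 within 78.2 kb of chromosome 7 (chr7:143607659-143685872). Tnfrsf10b ran from 339.9 to 407 (median 395) without treatment, 357 to 505 (median 448) after ADU-S100, 335 to 455 (median 388) after anti-LTβR and 309.9 to 375 (median 335) after both agents. Of the combination tumors 4 lay below every untreated tumor. Its difference was small, -0.16 ± 0.059 (adjusted p = 0.0405) from untreated tumors, and was lost in 7 of 10 alternative analyses, while that from ADU-S100 tumors was -0.35 ± 0.079 (adjusted p = 0.00186). Tnfrsf23 ran from 3684 to 5105 (median 4173) without treatment, 3984 to 5174 (median 4582) after ADU-S100, 3553 to 4304 (median 4013) after anti-LTβR and 2336 to 3775 (median 2974) after both agents. All combination tumors lay below every ADU-S100 tumor and 7 below every anti-LTβR tumor. The difference was -0.52 ± 0.083 (adjusted p = 0.000151) from untreated, -0.42 ± 0.075 (adjusted p = 0.0013) from anti-LTβR and -0.63 ± 0.079 (adjusted p = 2.37e-05) from ADU-S100 tumors. Tnfrsf22 ran from 1881 to 3678 (median 2979) without treatment, 2477 to 3536 (median 3194) after ADU-S100, 2080 to 3271 (median 2691) after anti-LTβR and 1561 to 2550 (median 1850) after both agents. Untreated tumor 3 was the lowest of its group and lay within the combination range. The difference was -0.61 ± 0.12 (adjusted p = 0.000826) from untreated and -0.47 ± 0.10 (adjusted p = 0.00417) from anti-LTβR tumors.

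Tnfrsf26, whose ligand is less well defined, differed from ADU-S100 tumors in the opposite direction to its neighbours. It ran from 69.2 to 129 (median 93.2) without treatment, 55 to 116 (median 74.2) after ADU-S100, 59.6 to 140 (median 87.4) after anti-LTβR and 84.8 to 221 (median 121) after both agents. The groups overlapped, with 2 combination tumors above every untreated tumor. It did not pass between combination and untreated tumors (0.41 ± 0.18, adjusted p = 0.0684) but passed against ADU-S100 tumors (0.76 ± 0.18, adjusted p = 0.00284). Tnfrsf22, Tnfrsf23 and Tnfrsf26 are related genes, and how reads that match more than 1 of them were counted is not given in the sources used here, so their separate levels are uncertain. Tnfrsf21, the death-domain receptor DR6, ran from 312 to 562 (median 400) without treatment, 336 to 528 (median 441) after ADU-S100, 413 to 596 (median 462) after anti-LTβR and 459 to 734 (median 562) after both agents. Combination tumors overlapped untreated tumors, with 4 above them all. The difference was 0.49 ± 0.13 (adjusted p = 0.00526) from untreated and 0.27 ± 0.097 (adjusted p = 0.0463) from anti-LTβR tumors, the latter call lost in 4 of 9 alternative analyses. Beside the decoy receptors, 3 of 5 epithelial markers passed as lower in combination than in untreated and than in anti-LTβR tumors, and none was at 0, while the mean log2 difference over all 5 was -0.55 from untreated and -0.032 from anti-LTβR tumors. Their part in the lower receptor levels was not tested.

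Tnfrsf12a, the receptor of TWEAK, had the most negative difference from untreated tumors of all members tested, with the combination and with the antibody alone. It ran from 3182 to 6487 (median 3986) without treatment, 2998 to 3812 (median 3557) after ADU-S100, 2663 to 3235 (median 2923) after anti-LTβR and 1689 to 2602 (median 2208) after both agents. No combination tumor overlapped a tumor of any other group, and 7 of 8 anti-LTβR tumors lay below every untreated tumor. The difference was -0.53 ± 0.12 (adjusted p = 0.00879) between anti-LTβR and untreated, -0.96 ± 0.13 (adjusted p = 5.52e-05) between combination and untreated and -0.43 ± 0.081 (adjusted p = 0.0018) between combination and anti-LTβR tumors, and none of these calls was lost in any alternative analysis, the 2-fold threshold apart. Of the epithelial markers 3 of 5 passed as lower than in untreated tumors with the antibody and with the combination, and their summed mean level was 0.698 and 0.502 times that of untreated tumors, but the mean log2 difference over the 5 was nearly equal at -0.52 and -0.55. Their part in the level of Tnfrsf12a was not tested. Its ligand Tnfsf12 ran from 251 to 354 (median 297) without treatment, 256 to 331 (median 286) after ADU-S100, 265 to 345 (median 301) after anti-LTβR and 288 to 487 (median 368) after both agents. It was higher in combination than in untreated tumors by 0.30 ± 0.11 (adjusted p = 0.0385), a call lost in 4 of 8 alternative analyses. Tnfsf11, which encodes RANKL, ran from 23.1 to 42.3 (median 28.9) without treatment, 15.8 to 45.6 (median 24.1) after ADU-S100, 19 to 58.6 (median 39.3) after anti-LTβR and 36.9 to 69.2 (median 50.5) after both agents. Of its combination tumors 7 lay above every untreated tumor. The difference was 0.72 ± 0.16 (adjusted p = 0.0019) from untreated and 0.44 ± 0.19 (adjusted p = 0.096) from anti-LTβR tumors, the latter not passing.

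Tnfrsf11a, which encodes RANK, ran from 83.4 to 159 (median 121) without treatment, 78.9 to 163 (median 116) after ADU-S100, 133 to 166 (median 152) after anti-LTβR and 152 to 225 (median 178) after both agents. Combination tumors were nearly clear of untreated tumors, with 7 above them all. The difference was 0.62 ± 0.13 (adjusted p = 0.000907) from untreated and 0.28 ± 0.088 (adjusted p = 0.0274) from anti-LTβR tumors. Tnfrsf11b, which encodes osteoprotegerin, the secreted decoy of RANKL, had means of 288 ± 85.2, 294 ± 78.5, 335 ± 58.7 and 305 ± 36.9 in untreated, ADU-S100, anti-LTβR and combination tumors and passed in no comparison. Ngfr, the low-affinity neurotrophin receptor, found on nerve cells, glia and some stromal cells, ran from 5.01 to 38.2 (median 22.2) without treatment, 13.1 to 24.2 (median 16.4) after ADU-S100, 14.5 to 60.8 (median 26.4) after anti-LTβR and 36 to 83.9 (median 49.3) after both agents. Combination tumors cleared every ADU-S100 tumor, and 7 of 8 cleared every untreated tumor. The difference was 1.38 ± 0.30 (adjusted p = 0.00162) from untreated and 0.85 ± 0.24 (adjusted p = 0.0181) from anti-LTβR tumors. Fibroblast markers moved beside it: 5 of 5 (Col1a1, Col1a2, Pdgfra, Dcn and Lum) passed as higher in combination than in untreated tumors and 0 of 5 with the antibody alone, none was at 0, and their summed level ran over 58680 to 93930 (median 65770) without treatment, 39750 to 114100 (median 57600) after ADU-S100, 46240 to 98970 (median 74700) after anti-LTβR and 100600 to 372700 (median 218600) after both agents. Their part in the level of Ngfr was not tested. Eda2r and Tnfrsf19, receptors of ectodermal development, passed in no comparison, with differences between combination and untreated tumors of 0.16 ± 0.28 (adjusted p = 0.672) and 0.25 ± 0.30 (adjusted p = 0.52).

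The antisense RNA Tnfsf13os overlaps Tnfsf13 and Tnfsf12 on chromosome 11 and ran from 7.18 to 15 (median 10.9) without treatment, 8.82 to 17.1 (median 11.3) after ADU-S100, 10.2 to 20.3 (median 15.9) after anti-LTβR and 11.8 to 22.1 (median 14.6) after both agents. It was higher in combination than in untreated tumors by 0.49 ± 0.19 (adjusted p = 0.0459), a call lost in 5 of 9 alternative analyses, among them the fit without untreated tumor 3 (adjusted p = 0.08 by limma, with a range of 0.0236 to 0.153 over all alternatives). The study's methods name a stranded library protocol. Whether the counting used strand is not given in the sources used here, so how far reads of Tnfsf13os and its overlapping partners were told apart is not known.

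The 8 members that passed with the antibody alone were Fas, Tnfrsf14, Tnfrsf1b, Tnfrsf9, Tnfsf10, Tnfsf13b and Tnfsf15, which were higher, and Tnfrsf12a, which was lower. The 16 members that passed between combination and anti-LTβR tumors were Cd27, Cd40, Fasl, Lta, Ltb, Ngfr, Tnf, Tnfrsf11a, Tnfrsf13b, Tnfrsf18, Tnfrsf21 and Tnfsf14, which were higher, and Tnfrsf10b, Tnfrsf12a, Tnfrsf22 and Tnfrsf23, which were lower. These comparisons share the anti-LTβR tumors, and that a gene passed in the first and not in the latter does not show that the effects differ.

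Whether the effect of ADU-S100 differed with and without the antibody was tested as the interaction of the agents over all 32 tumors, in which 10 of 42 members passed, 7 positive and 3 negative, against 18.4% of all 17649 genes, 7.33% positive and 11% negative, and for 1 member the term reached 2-fold (3.06%). A positive value means that adding ADU-S100 raised log2 expression more, or lowered it less, in the presence of the antibody. The interaction was positive for Tnf at 0.99 ± 0.31 (adjusted p = 0.0262), Tnfsf14 at 0.80 ± 0.20 (adjusted p = 0.00676) and Cd40 at 0.58 ± 0.19 (adjusted p = 0.0307). The receptors Tnfrsf26 (0.89 ± 0.26, adjusted p = 0.0152), Tnfrsf18 (0.47 ± 0.15, adjusted p = 0.0244), Tnfrsf13b (0.64 ± 0.22, adjusted p = 0.0405) and Tnfrsf8 (1.15 ± 0.40, adjusted p = 0.0413) were also positive. It was negative for the 3 TRAIL receptors of the death ligand and receptor group, Tnfrsf23 at -0.53 ± 0.10 (adjusted p = 0.000891), Tnfrsf22 at -0.56 ± 0.15 (adjusted p = 0.0124) and Tnfrsf10b at -0.38 ± 0.10 (adjusted p = 0.0108). For Tnfrsf23, ADU-S100 tumors differed from untreated tumors by 0.11 ± 0.065 (adjusted p = 0.413) and combination from anti-LTβR tumors by -0.42 ± 0.075 (adjusted p = 0.0013). Members such as Tnfsf10 (-0.22 ± 0.24, adjusted p = 0.549), Tnfrsf14 (-0.053 ± 0.19, adjusted p = 0.877) and Tnfrsf12a (-0.17 ± 0.15, adjusted p = 0.445) did not pass. Tnfrsf23 and Tnfrsf26 kept their call in every alternative except the 2-fold threshold, the other 8 lost it without the 7 libraries of 14000000 or fewer reads, and Tnfrsf13b and Tnfrsf8 also lost it without untreated tumor 3. In all Tnfrsf8 lost it in 5 of 8 alternatives, Tnfrsf13b in 3 of 9 and Tnfrsf18 in 2 of 9.

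The genes around these receptors were followed with a list of 31, made up of adaptors, kinases, NF-κB factors, inhibitors, the caspase gene Casp8 and the ligand sheddase gene Adam17, and combination tumors had 8 of them higher and 2 lower than untreated tumors, where 19.6% of all genes were higher and 23.6% lower, with a median log2 fold change of 0.015, and none changed 2-fold. The 3 with the smallest adjusted p were Birc3 at 0.65 ± 0.076 (adjusted p = 1.82e-05), which encodes the ubiquitin ligase cIAP2 and is a known NF-κB target, its relative Birc2 at 0.24 ± 0.044 (adjusted p = 0.000457), and Tnfaip3 at 0.46 ± 0.090 (adjusted p = 0.000735), which encodes the feedback inhibitor A20. The 2 lower genes, named after their values were seen, encode subunits of canonical NF-κB and were Nfkb1, at -0.18 ± 0.053 (adjusted p = 0.0109), and Rela, at -0.14 ± 0.050 (adjusted p = 0.0282). With the antibody alone 4 of 31 were higher and 0 lower (7.21% and 8.1% of all genes), with ADU-S100 alone 0 and 0 (0.0% of all genes), between combination and anti-LTβR tumors 2 and 2 (11.3% and 15.3%), and between combination and ADU-S100 tumors 8 and 6 (20.2% and 26.0%).

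RefSeq promoter sequence was given for 33 of the 44 members (37 windows of the 250 bases before a start). The NF-κB consensus, searched on both strands, matched in 4 members (12.1%: Ltb, Tnfrsf25, Tnfrsf8 and Tnfrsf9) and in 8.23% of all 27025 genes with a window. The interferon response element core GAAANNGAAA, also searched on both strands, matched in 4 members (12.1%: Tnfrsf14, Tnfrsf17, Tnfrsf1b and Tnfsf13b) and in 3.46% of these genes. Of the 20 members with a window that were higher in combination tumors, 2 held the NF-κB match and 3 the interferon match, and of the 8 that did not pass, 2 and 0. Tnfrsf1b, Tnfrsf14, Tnfsf13b and Tnfrsf9 are shown because they hold a match and also passed with the antibody alone. They are printed 5′ to 3′ on the strand of the gene from chr4:145246871-145247120 (minus strand), chr4:154928122-154928151 (minus strand), chr8:10006603-10006632 (plus strand) and chr4:150927946-150927975 (plus strand), with the match in capitals, and in Tnfrsf9 overlapping matches run together. The 30 bases shown for each of Tnfrsf14, Tnfsf13b and Tnfrsf9 precede a RefSeq start but lie wholly inside a GENCODE exon of another transcript of the gene. A match is a description of the letters and not evidence of binding.
Tnfrsf1b: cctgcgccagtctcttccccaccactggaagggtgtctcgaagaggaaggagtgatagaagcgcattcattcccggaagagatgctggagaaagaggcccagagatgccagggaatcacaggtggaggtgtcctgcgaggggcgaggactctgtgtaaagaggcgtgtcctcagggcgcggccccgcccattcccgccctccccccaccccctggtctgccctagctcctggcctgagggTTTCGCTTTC
Tnfrsf14: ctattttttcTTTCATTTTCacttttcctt
Tnfsf13b: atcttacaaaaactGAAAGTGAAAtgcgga
Tnfrsf9: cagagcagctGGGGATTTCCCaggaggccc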

How the data were processed

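RNA of 32 individual KPC tumors (4 groups of 8, grouped by the sample labels) was measured by bulk RNA-seq. The deposited values are a signal made by the authors, the reads counted for a gene over a size factor set for each library. The methods name HISAT2 and StringTie and the reporting summary STAR in Partek Flow, and which made the table was not settled. Whole reads were recovered from a larger deposited table of 52 libraries (100% of values whole within 0.1 read), in which 3 members (Ltb, Tnfrsf1b and Tnfsf12) were not found and in some libraries the worth of 1 read lies too near 1 to be told from rounding. Of its 20 libraries of another experiment, 15 have labels that contradict each other, and none of the 20 entered a test. The levels of these 15 are only set beside those of the 32 libraries at the end. The processing notes name mm39, whereas positions printed here are GRCm38 (GENCODE annotation and RefSeq).

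Groups were compared with limma 3.58.1 (R 4.3.3, trend) on log2(value + 1), a scale that understates the change of low genes, each comparison on its 16 libraries and the interaction on all 32. Low genes were removed with filterByExpr (edgeR 4.0.16, count minimum 10). P-values were adjusted by Benjamini-Hochberg over all genes tested, with a threshold of 0.05, and for members that failed the filter an exact permutation test (two-sided, 12870 splits) was used. Alternatives were another pseudocount (0.5), other filters, edgeR and DESeq2 1.42.0 on recovered reads, a replicate block, deeper libraries only, a joint fit, a 2-fold threshold, and 2 chosen after seeing the data. Every member is named. Those that passed in any comparison of groups are given by the lowest, median and highest tumor, and of the signaling list the 3 genes with the smallest adjusted p. The fits were tested on simulated data. Another B cell marker of the list is not reported here. The members, lists and tests were chosen with earlier results of these data known.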

Additional observations from a re-analysis of the deposited data

Results flagged for a closer look

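For each of the 44 members, the highest and lowest tumor of each group of 8 was compared with the rest of its group, and 22 of 176 values lay far from the others, in 16 genes. The criterion was Dixon's, the gap to the nearest tumor over the range of the group. Chance passes it in about 1 in 20 groups of independent, normally distributed values. The genes here share their tumors, and low counts such as those of Cd70, mostly at 0, are far from normal, so that rate does not apply here. Among untreated tumors these were Fas at 207 in tumor 3 (the others 74.3 to 129), Tnfrsf11b at 476 in tumor 3 (the others 215 to 325), Tnfrsf1b at 2225 in tumor 3 (the others 1665 to 1854), Tnfrsf22 at 1881 in tumor 3 (the others 2863 to 3678) and Tnfsf18 at 111 in tumor 3 (the others 6.68 to 26.7), all in tumor 3, and Cd70 at 3.01 in tumor 1 (the others 0 to 1.02), Tnfsf13b at 217 in tumor 2 (the others 94.2 to 137) and Tnfsf8 at 94.5 in tumor 5 (the others 49.1 to 68.2). Among ADU-S100 tumors they were Tnfrsf14 at 126 in tumor 1 (the others 211 to 263), Tnfrsf1b at 1657 in tumor 1 (the others 1954 to 2125), Cd70 at 0.999 in tumor 3 (the others all at 0) and Tnfrsf13c at 0 in tumor 3 (the others 3.96 to 7.03). Among anti-LTβR tumors they were Fas at 212 in tumor 4 (the others 127 to 164), Fasl at 20.7 in tumor 5 (the others 36.8 to 47.8), Tnfrsf17 at 46.1 in tumor 6 (the others 4.80 to 18.5), Tnfrsf19 at 150.2 in tumor 3 (the others 40.3 to 80.2) and Tnfsf15 at 27.8 in tumor 1 (the others 10.9 to 16.3). Among combination tumors they were Ngfr at 83.9 in tumor 2 (the others 36 to 54.9), Tnfrsf13c at 32.8 in tumor 7 (the others 5.53 to 13.8), Tnfrsf18 at 196 in tumor 1 (the others 146 to 166), Tnfsf18 at 38.4 in tumor 3 (the others 1.15 to 16.4) and Cd70 at 2.95 in tumor 3 (the others 0 to 1.15). Values are normalized counts.

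The effect of ADU-S100 differed with and without the antibody, by the interaction term of limma over all genes, in 10 of 42 members, where 18.4% of all 17649 genes passed, and 8 of the 10 did not pass without the 7 libraries of 14000000 or fewer reads. The log2 interaction was 0.99 for Tnf, 0.80 for Tnfsf14, 0.58 for Cd40, 0.89 for Tnfrsf26, 0.47 for Tnfrsf18, 0.64 for Tnfrsf13b and 1.15 for Tnfrsf8, and -0.53 for Tnfrsf23, -0.56 for Tnfrsf22 and -0.38 for Tnfrsf10b.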

How the results depend on the processing

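No member that passed changed direction in any alternative, and 0 members passed between ADU-S100 and untreated tumors in all of them. Requiring at least a 2-fold change left 5 of 27 members between combination and untreated, 1 of 8 between anti-LTβR and untreated, 0 of 16 between combination and anti-LTβR and 6 of 27 between combination and ADU-S100 tumors, and 1 of 10 in the interaction. With edgeR (TMM) on recovered reads, 5 members passed between anti-LTβR and untreated tumors, with 3 members not in that table. With only libraries above 14000000 reads, 2 members passed against anti-LTβR tumors in the combination group (0 up and 2 down) and 2 in the interaction, where fewer tumors entered. The counts of the other alternatives (a pseudocount of 0.5, no filter on low values, at least 10 in every library, DESeq2, all groups in a joint fit and, chosen after seeing the data, the muscle marker level as a covariate and leaving out untreated tumor 3) stayed within 1.5 times. The muscle marker level as a covariate gave 25 members between combination and untreated tumors and 6 between anti-LTβR and untreated tumors, and leaving out untreated tumor 3 gave 30 and 9.

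Same-numbered tumors of different groups come from different mice, and their deviations from the group means did not correlate throughout (mean correlation -0.0855 to 0.186 over the pairs of groups). With the replicate number as a block, 25 members passed between combination and untreated, 6 between anti-LTβR and untreated, 16 between combination and anti-LTβR (of which 13 also passed without it, while Fasl, Lta and Tnfrsf21 no longer passed), 27 between combination and ADU-S100 tumors, 0 between ADU-S100 and untreated tumors and 9 in the interaction. The counting error limits the lowest members, such as Cd40lg, Cd70 and Tnfrsf13c.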

Other observations

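The larger table of normalized counts, scaled over all 52 libraries, holds 15 libraries of another experiment whose labels contradict each other, and these were put in no group. Of 41 members found there, 27 had a higher and 14 a lower median in these 15 than in the 32 libraries. On that scale Cd27 ran from 33.2 to 351 (median 88.5) in them and from 24.5 to 119.8 (median 56.1) in the 32 libraries. Cd40 ran from 147 to 731 (median 296) in them and from 116 to 386 (median 198) in the 32 libraries, and Cd40lg ran from 0 to 12.9 (median 4.39) in them and from 0 to 11.9 (median 2.27) in the 32 libraries. Tnfrsf25 ran from 8.29 to 58.4 (median 21.1) in them and from 58.6 to 125 (median 83.4) in the 32 libraries, and Tnfrsf14 ran from 77.1 to 239 (median 154) in them and from 113 to 463 (median 262) in the 32 libraries. These 5 members were named after their values were seen, and differences of treatment and of experiment between the 2 sets of libraries cannot be told apart.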
